A study of Arabidopsis thaliana with 12 samples.

Results

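The 10 genes described here are those whose transcripts mark leaf senescence or a dark, sugar-starved state, followed across 4 genotypes of Arabidopsis thaliana out of 33602 genes in the deposited table. They were ORE1 (AT5G39610, also ANAC092), NAP (AT1G69490), SAG12 (AT5G45890), SAG13 (AT2G29350), SEN1 (AT4G35770, also DIN1), NYE1 (AT4G22920, also SGR1), DIN2 (AT3G60140, also BGLU30), ASN1 (AT3G47340, also DIN6), DIN10 (AT5G20250) and DIN11 (AT3G49620). The 10 genes were chosen by name with no threshold, on the normalized counts of these same libraries as well as on known roles, so their levels with and without ceh1 are given as a description with no test. All 10 matched a RefSeq gene by locus.

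The plants were 3-week-old rosettes grown on soil under 16 h of light and 8 h of dark, with 3 biological replicates of each genotype and polyadenylated RNA as the input. Col-0 is taken as the wild type, and the submitters titled the libraries of this group as the parent. The ceh1 mutant carries a lesion in HDS, an enzyme of isoprenoid synthesis in plastids whose substrate MEcPP (methyl-erythritol cyclodiphosphate) also acts as a stress signal. The eds16 mutant lacks a working ICS1, the isochorismate synthase behind most stress-induced salicylic acid, and ceh1/eds16 carries both lesions. No complemented line is among the groups, and the hour of harvest is not given in the sources used here. With whole rosettes, fewer cells of a type and less RNA per cell cannot be told apart.

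Senescence takes a leaf apart in an ordered way, so that nitrogen and carbon can be moved to other organs. NAC transcription factors such as ORE1 and NAP switch on the genes for chlorophyll breakdown, proteolysis and nitrogen export. The dark-inducible (DIN) genes were named for their rise in leaves kept in the dark, where sugar runs out. Many of them are held down by sugar and switched on through the SnRK1 energy-sensing kinases and bZIP transcription factors. Salicylic acid is known to favour expression of part of the senescence programme.

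The promoters of DIN11, ASN1, SEN1, SAG13 and NAP are shown because these are the genes that differed between ceh1/eds16 and ceh1 in the tests given further on, DIN11, ASN1 and SEN1 in one direction and SAG13 and NAP in the other. Each is the 250 bases before the start of the RefSeq gene in the TAIR10.1 genome, read on the gene's strand: chr3:18393497-18393746 on the plus strand for DIN11, chr3:17441432-17441681 on the minus strand for ASN1, chr4:16944628-16944877 on the plus strand for SEN1, chr2:12600664-12600913 on the plus strand for SAG13 and chr1:26121830-26122079 on the plus strand for NAP. Capitals mark a G-box (CACGTG) or the sugar-repression element TATCCA.
DIN11: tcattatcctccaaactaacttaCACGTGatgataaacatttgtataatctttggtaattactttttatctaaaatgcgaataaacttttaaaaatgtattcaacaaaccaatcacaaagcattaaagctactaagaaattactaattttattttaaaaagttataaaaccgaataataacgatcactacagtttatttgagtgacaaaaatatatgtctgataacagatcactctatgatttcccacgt
ASN1: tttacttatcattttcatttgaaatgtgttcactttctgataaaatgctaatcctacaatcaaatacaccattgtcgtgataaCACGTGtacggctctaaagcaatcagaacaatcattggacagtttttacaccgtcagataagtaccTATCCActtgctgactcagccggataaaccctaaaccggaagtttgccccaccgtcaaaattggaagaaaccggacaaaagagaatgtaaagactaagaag
SEN1: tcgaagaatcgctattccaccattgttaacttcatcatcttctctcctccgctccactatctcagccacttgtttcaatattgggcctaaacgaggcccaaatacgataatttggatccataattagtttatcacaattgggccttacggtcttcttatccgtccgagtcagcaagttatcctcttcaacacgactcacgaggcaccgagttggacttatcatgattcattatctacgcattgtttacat
SAG13: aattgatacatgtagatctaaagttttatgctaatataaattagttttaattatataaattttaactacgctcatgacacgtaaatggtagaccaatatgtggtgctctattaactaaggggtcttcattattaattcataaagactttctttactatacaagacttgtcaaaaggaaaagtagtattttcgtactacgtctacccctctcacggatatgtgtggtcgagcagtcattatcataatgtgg
NAP: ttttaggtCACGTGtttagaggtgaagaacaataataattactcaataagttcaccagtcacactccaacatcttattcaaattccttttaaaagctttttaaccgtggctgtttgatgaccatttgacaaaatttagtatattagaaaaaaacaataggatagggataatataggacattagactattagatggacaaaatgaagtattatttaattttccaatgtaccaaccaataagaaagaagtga
A G-box, the core bound by many bZIP and basic helix-loop-helix factors, stood 227 bases before the start of DIN11, 167 before ASN1 and 242 before NAP, and the promoters of SEN1 and SAG13 held none. It was in 3 of the 10 promoters and, on either strand, in 6.49% of 27431 promoters of the same length. TATCCA was in the ASN1 promoter alone among the 10, 101 bases before the start, and in 13.6% of all promoters. A W-box (TTGACC or TTGACT, the core bound by WRKY factors) was in the DIN10 promoter alone, 145 bases before the start, and in 28.4% of all. The motif ACTCAT, bound by small bZIP factors, was in none of the 10 and in 12.3% of all. These windows of 250 bases held no overlapping matches of different motifs, and a match is a description of letters, not a bound site.

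Values are counts that the authors had normalized to 1 size factor per library, given as mean ± SD of 3 libraries, and log2 differences are on the log2(normalized count + 1) scale, which understates changes of genes with few reads. Between 4.99 M and 18.08 M reads fell in genes per library. The ICS1 transcript checked the eds16 labels, at 15.2 ± 4.47 and 21 ± 7.06 in the 2 genotypes with eds16 against 245 ± 27.6 for Col-0 and 666 ± 31.2 for ceh1. This transcript cannot show the ceh1 lesion. A library stood apart in each of the ceh1 genotypes. The ceh1 replicate 3 was the highest of its group for SEN1, ASN1, DIN10, DIN2 and DIN11 and the lowest for NAP. By smaller margins it was also the lowest for ORE1 and NYE1 and the highest for SAG12. Leaving out ceh1/eds16 replicate 3 raised the number of genes called in the interaction from 891 to 3013. The 6 rosette leaf markers were detected in every library and summed to 273485 to 303727 for Col-0, 115852 to 135426 for ceh1, 261522 to 273747 for eds16 and 119827 to 172144 for ceh1/eds16. All 6 were lower in both ceh1 genotypes than in their controls, and their part in the results was not tested. Of 9 flower and bolting markers, 7 could be tested and 5 of these were lower in both ceh1 comparisons, with sums of 1819 to 2113 for Col-0, 1393 to 1814 for ceh1, 2191 to 2875 for eds16 and 1644 to 2006 for ceh1/eds16. Root markers summed to 435 to 567 for Col-0, 989 to 1222 for ceh1, 455 to 481 for eds16 and 961 to 1150 for ceh1/eds16, with RHD6 and COBL9, which define root hairs, at or near 0 and most of the higher sum from PYK10. Of 3 root markers that could be tested, 1 was called higher and 1 lower in ceh1 against Col-0, and 1 higher and 0 lower in ceh1/eds16 against eds16.

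**Figure D1:**
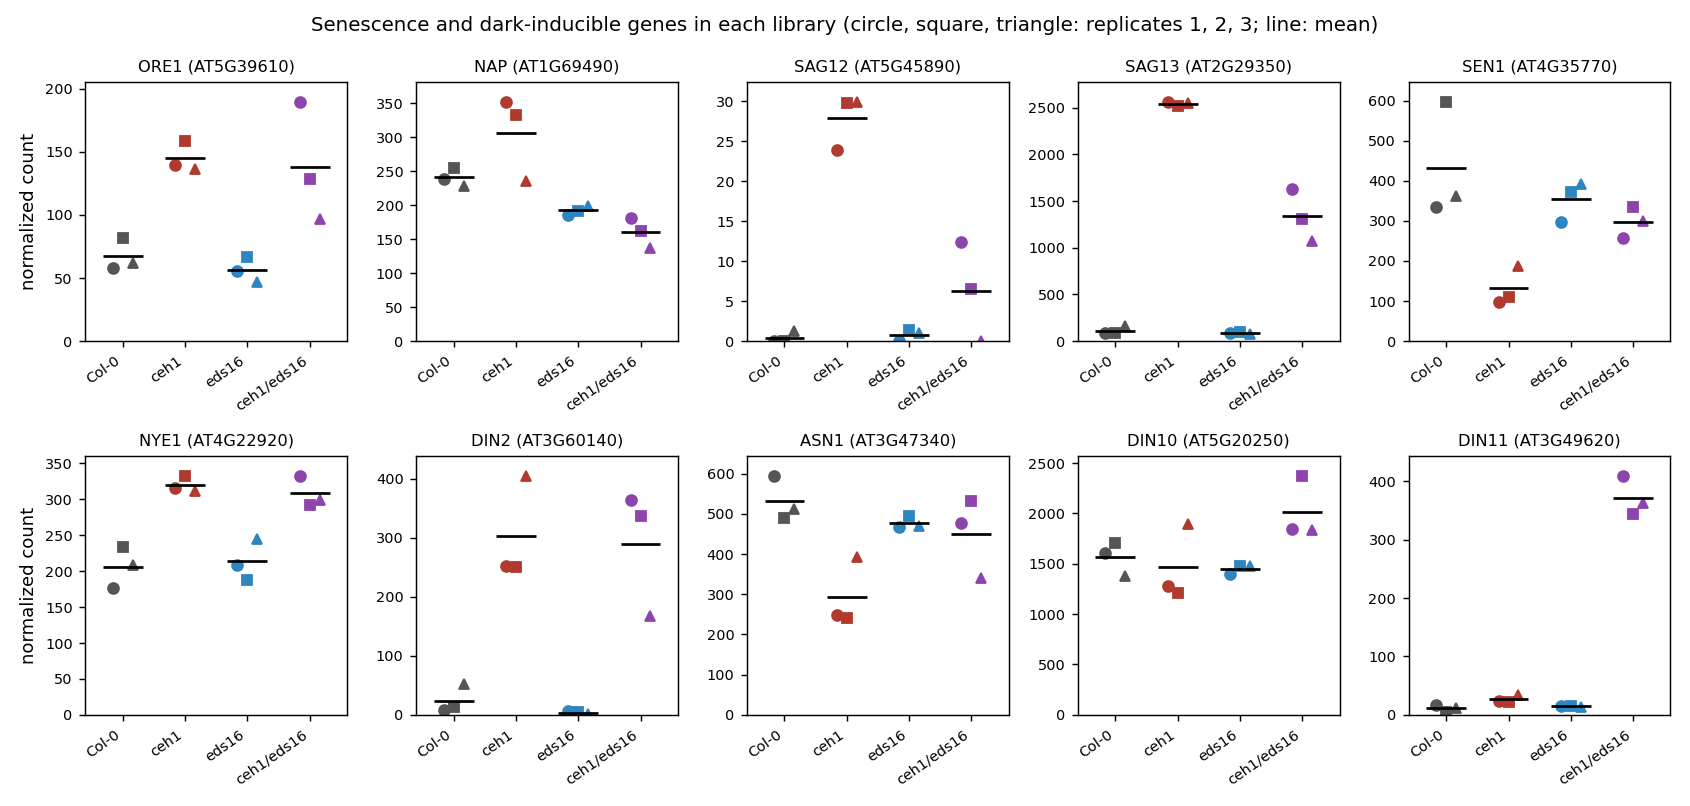
Normalized count of each of the 10 genes (vertical axis, from 0) in the 12 libraries, by genotype on the horizontal axis, with a symbol for each replicate and a line at the mean. DIN11 is high in the 3 ceh1/eds16 libraries alone, at 344 to 409, while SEN1 is lowest in the 3 ceh1 libraries, at 98.6 to 188.

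ORE1 and NAP, the NAC regulators, differed from each other. ORE1, which acts downstream of the ethylene signalling factor EIN2 and promotes leaf death with age (chromosome 5, 15858398 to 15859911, protein-coding), read 58.3, 82.1 and 61.8 in the Col-0 libraries and 139, 159 and 137 in the ceh1 libraries. The eds16 libraries read 55.7, 66.5 and 46.6 and the ceh1/eds16 libraries 189, 128 and 96.6. Every library with ceh1 was above every library of its control, by a log2 difference of 1.11 ± 0.22 (SE) with working ICS1 and of 1.24 ± 0.22 without it. The gap between these effects was 0.13 (95% interval from -0.52 to 0.79, adjusted p = 0.843).

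NAP, which activates chlorophyll degradation and abscisic acid synthesis in old leaves (chromosome 1, 26122080 to 26123514, protein-coding), read 239, 255 and 228 in the Col-0 libraries and 351, 333 and 235 in the ceh1 libraries. Its eds16 libraries read 186, 192 and 199, and its ceh1/eds16 libraries 181, 162 and 137. The ceh1 libraries overlapped Col-0 through replicate 3 (log2 difference 0.33 ± 0.15, and 0.22 to 0.51 without 1 library, the highest without ceh1 replicate 3), whereas all 3 ceh1/eds16 libraries lay below eds16 (-0.27 ± 0.15). NAP was thus the only one of the 9 tested genes to be lower without overlap in ceh1/eds16 than in eds16. The gap between the ceh1 effects of -0.60 ± 0.22 did not pass (adjusted p = 0.123), and passed without ceh1 replicate 3 (-0.78, adjusted p = 0.033). Against ceh1, NAP fell in ceh1/eds16 by 0.92 ± 0.15 on the log2 scale (adjusted p = 0.00081), with no overlap of libraries. All eds16 libraries were also below all Col-0 libraries (-0.32 ± 0.15), a difference that did not pass (adjusted p = 0.254).

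NYE1, the Mg-dechelatase that opens chlorophyll breakdown (chromosome 4, 12016420 to 12018643, protein-coding), had the smallest ceh1 effects of the 5 genes that were higher without overlap in both backgrounds. Its libraries read 177, 234 and 209 for Col-0, 316, 333 and 311 for ceh1, 209, 188 and 246 for eds16 and 333, 292 and 299.7 for ceh1/eds16. The 6 libraries with ceh1 were above the 6 without it, by 0.64 ± 0.14 and 0.53 ± 0.14 on the log2 scale. The double mutant and ceh1 overlapped, with a difference of -0.05 (95% interval from -0.34 to 0.23, adjusted p = 0.861).

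SAG12, a cysteine protease and the classic marker of late, developmental senescence (chromosome 5, 18613239 to 18614963, protein-coding), stayed scarce. It drew 1 read in all Col-0 libraries together and 2 in all eds16 libraries, against 133 reads in ceh1 and 20 in ceh1/eds16. Normalized counts were 0, 0 and 1.29 for Col-0, 23.9, 29.8 and 29.9 for ceh1, 0, 1.33 and 1.04 for eds16 and 12.4, 6.47 and 0 for ceh1/eds16. A count of 0 allows up to 3 reads in a library, which is 3.57 to 5.35 normalized counts for Col-0 and 2.88 to 3.99 for eds16. The 3 ceh1 libraries were above that limit and above all others, and the ceh1/eds16 libraries overlapped the controls through a library with no read. These limits cover counting error only, and SAG12 was below the filter of a mean of 10 and entered no test.

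SAG13, a short-chain dehydrogenase-like protein whose transcript comes early in senescence and in cell death (chromosome 2, 12600914 to 12602556, protein-coding), was the most abundant of the 10 per kilobase in ceh1. Col-0 libraries read 85.6, 87.4 and 162 and ceh1 libraries 2558, 2520 and 2545. In the eds16 background it went from 84.4, 95.8 and 71.5 to 1631, 1304 and 1072. The libraries with and without ceh1 were far apart, by 4.56 ± 0.21 with ICS1 and 3.97 ± 0.21 without. All ceh1/eds16 libraries were below all ceh1 libraries, and SAG13 fell by 0.95 ± 0.21 from ceh1 to ceh1/eds16 (adjusted p = 0.00616). The gap between the ceh1 effects, -0.59 ± 0.29, did not pass (adjusted p = 0.245), and did so without Col-0 replicate 3, which was the highest Col-0 library (-0.89, adjusted p = 0.0379).

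The genes named for dark or sugar starvation did not move as a block. SEN1, a strongly dark-induced gene of senescing leaves (chromosome 4, 16944878 to 16946266, protein-coding), read 334, 596 and 362 in the Col-0 libraries but 98.6, 110 and 188 in the ceh1 libraries. The eds16 libraries read 296.5, 371 and 393 and the ceh1/eds16 libraries 258, 334 and 299.7. Every ceh1 library was below every library of the other genotypes. The ceh1 effect was -1.71 ± 0.23 with ICS1 and -0.25 ± 0.23 without it, where the groups overlapped. The gap of 1.46 ± 0.33 passed the test over all genes (adjusted p = 0.018), and SEN1 rose by 1.21 ± 0.23 from ceh1 to ceh1/eds16 (adjusted p = 0.00236). The gap did not pass without Col-0 replicate 2 (adjusted p = 0.0535), ceh1 replicate 1 (0.0633), ceh1 replicate 2 (0.057) or eds16 replicate 1 (0.0614), at 1.20 to 1.74 over all leave-outs.

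ASN1, the glutamine-dependent asparagine synthetase that packs nitrogen into asparagine when carbon is short (chromosome 3, 17437840 to 17441431, protein-coding), had the same order of genotypes as SEN1 with ceh1 lowest. Its libraries read 594, 489 and 511 for Col-0, 247, 240 and 394 for ceh1, 467, 495 and 469 for eds16 and 478, 533 and 342 for ceh1/eds16. Again the 3 ceh1 libraries were below the 3 Col-0 libraries, by -0.89 ± 0.18, and ceh1/eds16 overlapped eds16 (-0.11 ± 0.18). The gap of 0.78 ± 0.26 missed the threshold (adjusted p = 0.0911), and passed without ceh1 replicate 3 (1.01, adjusted p = 0.0157) or ceh1/eds16 replicate 3 (0.97, adjusted p = 0.00712). ASN1 was higher in ceh1/eds16 than in ceh1 by 0.63 ± 0.18 (adjusted p = 0.0358) although the libraries overlapped. That call was lost when any of these libraries was left out: Col-0 replicate 3, ceh1 replicates 1 and 2, eds16 replicate 1, and ceh1/eds16 replicates 1 and 2. It was then at adjusted p of 0.0504 to 0.178.

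DIN10, a raffinose synthase-like protein (RS6; chromosome 5, 6833564 to 6836862, protein-coding), was the most abundant of the 10 per kilobase in Col-0 and eds16. Its libraries read 1605, 1704 and 1382 for Col-0, 1281, 1214 and 1895 for ceh1, 1395, 1474 and 1474 for eds16 and 1843, 2371 and 1837 for ceh1/eds16. Without ICS1 all 3 libraries with ceh1 were above those of the control (0.47 ± 0.16), while with ICS1 the groups overlapped (-0.12 ± 0.16, and -0.32 without ceh1 replicate 3). Neither the gap of 0.59 ± 0.22 (adjusted p = 0.132) nor the difference of 0.48 ± 0.16 between ceh1/eds16 and ceh1 (adjusted p = 0.059) passed. Without ceh1 replicate 3 these were 0.79 (adjusted p = 0.023) and 0.68 (adjusted p = 0.00503), and without ceh1/eds16 replicate 3 they were 0.65 (adjusted p = 0.0404) and 0.54 (adjusted p = 0.0205).

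DIN2, a beta-glucosidase (BGLU30; chromosome 3, 22216540 to 22220824, protein-coding), was high wherever ceh1 was present. Its libraries read 8.32, 12.5 and 51.5 for Col-0, 252, 251 and 405 for ceh1, 5.76, 3.99 and 1.04 for eds16 and 365, 337 and 167 for ceh1/eds16. No library with ceh1 overlapped one without it, and the log2 differences were 3.98 ± 0.52 and 6.07 ± 0.52. The gap of 2.09 ± 0.74 did not pass (adjusted p = 0.111), and passed without ceh1/eds16 replicate 3 (2.44, adjusted p = 0.0224). Between the plants without ceh1, DIN2 fell in eds16 against Col-0 by 2.20 ± 0.52 on the log2 scale (adjusted p = 0.0249), on 10 reads for eds16 and 54 for Col-0. That call was lost without Col-0 replicate 2 (adjusted p = 0.0625), Col-0 replicate 3 (-1.45, adjusted p = 0.0814), eds16 replicate 2 (0.0707) or eds16 replicate 3 (0.0878). The difference between ceh1/eds16 and ceh1 was -0.11 (95% interval from -1.21 to 1.00, adjusted p = 0.936), and its sign turned without ceh1 replicate 3 or ceh1/eds16 replicate 3.

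DIN11, a 2-oxoglutarate- and iron-dependent dioxygenase-like protein (chromosome 3, 18393747 to 18397050, protein-coding), had the largest gap between the ceh1 effects of the 2 backgrounds among the 9 genes. The Col-0 libraries read 16.6, 5.35 and 11.6, the ceh1 libraries 23.1, 22.5 and 33.9 and the eds16 libraries 14.4, 16 and 13.5. The ceh1/eds16 libraries read 409, 344 and 363. These 3 libraries together held 1151 reads of the gene, against 124 for ceh1, 40 for eds16 and 26 for Col-0. The ceh1 effect was 1.27 ± 0.30 with ICS1 and 4.58 ± 0.30 without it. The gap of 3.31 ± 0.42 passed (adjusted p = 0.000313) and stayed between 2.98 and 3.72, past the threshold, in all 12 fits without 1 library. From ceh1 to ceh1/eds16 DIN11 rose by 3.78 ± 0.30 (adjusted p = 3.75e-07), a 14.0-fold ratio of the mean normalized counts. In eds16 alone the difference from Col-0 was 0.47 ± 0.30 (adjusted p = 0.392).

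**Figure D2:**
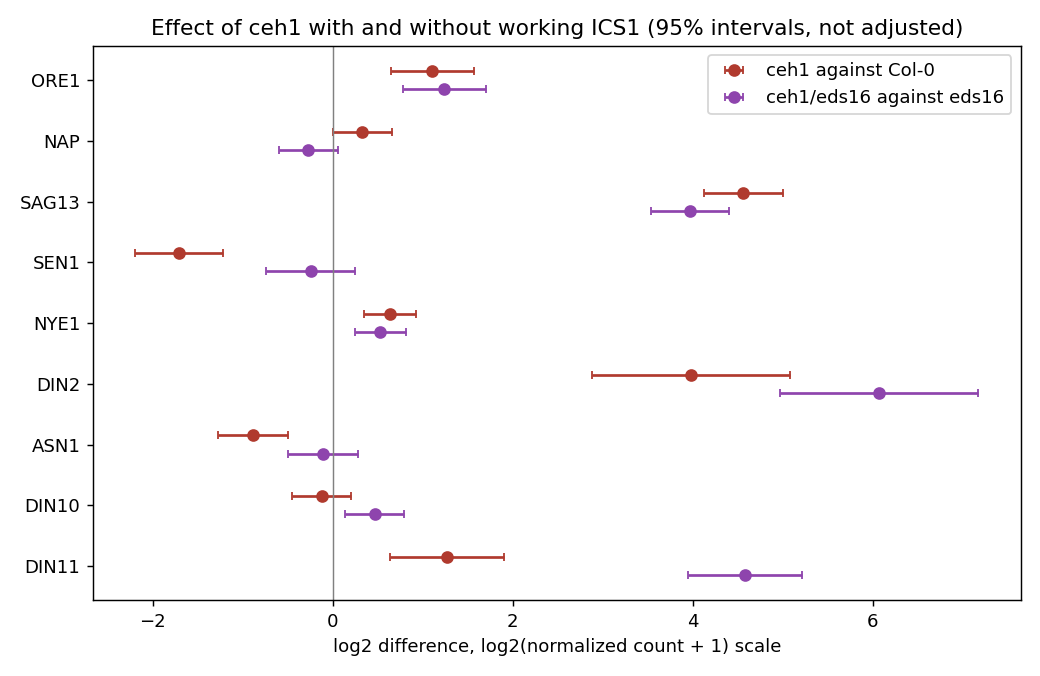
Log2 difference made by ceh1 (horizontal axis) for the 9 genes that entered the fit, with ICS1 intact (ceh1 against Col-0) and without it (ceh1/eds16 against eds16); bars are 95% intervals, not adjusted for the number of genes. SEN1 and ASN1 lie below 0 with ICS1 at -1.71 and -0.89 and near 0 without it, and DIN11 moves from 1.27 to 4.58.

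Counted over the 9 genes in the fit, 5 were higher and 2 lower without overlap in ceh1 than in Col-0, and 6 were higher and 1 lower in ceh1/eds16 than in eds16. Over all 18289 genes tested, 31.5% were higher and 30.8% lower without overlap in the first comparison, and 25.4% and 23.7% in the second. These counts describe the chosen genes and carry no weight beyond that. In the tests that compare backgrounds, 2 of 9 had a more positive ceh1 effect without ICS1 (SEN1 and DIN11) against a background of 3.08% of all genes, where a further 1.79% had a more negative one. Between ceh1/eds16 and ceh1, 3 were higher (DIN11, SEN1 and ASN1) and 2 lower (SAG13 and NAP), against 5.93% and 4.24% of all genes. Between eds16 and Col-0, DIN2 was the gene that was lower, against 2.96% of all genes lower and 1.63% higher. The interaction shares its libraries with the other comparisons, so these counts are not independent of each other. The genes were chosen with values of these libraries known, so the counts and adjusted p-values of the members in these tests are a description too.

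The scaling of the libraries bears on some directions. When libraries were scaled to equal totals the median log2 difference of all genes moved to 0.24 in ceh1 against Col-0, 0.12 in ceh1/eds16 against eds16 and -0.10 in ceh1/eds16 against ceh1. Under that scaling DIN10 turned from -0.12 to 0.11 in ceh1 against Col-0, and ASN1 from -0.11 to 0.01 in ceh1/eds16 against eds16. NAP moved from 0.33 to 0.56 in ceh1 against Col-0 and from -0.27 to -0.16 in ceh1/eds16 against eds16. Scaling to equal upper quartiles turned no direction of the 9 genes.

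**Figure D3:**
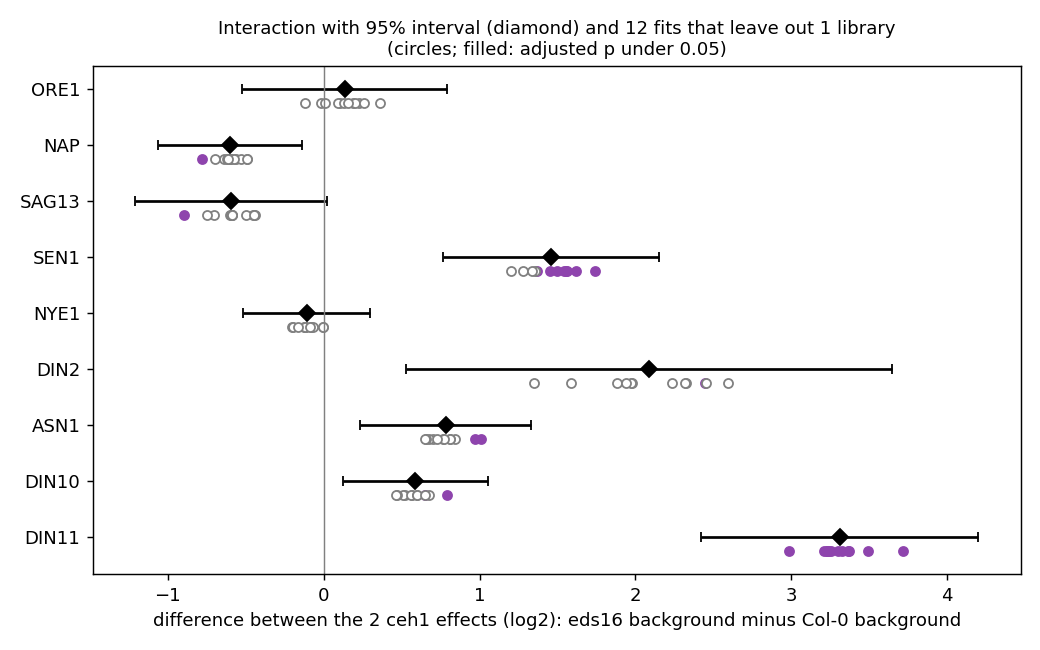
The ceh1 effect in the eds16 background minus that in the Col-0 background (horizontal axis, log2) for 9 genes. The diamond is the fit with 12 libraries, with its 95% interval before adjustment, and each circle is a fit without 1 library, filled where the adjusted p was under 0.05. DIN11 has filled circles throughout, between 2.98 and 3.72.

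Per kilobase of exon the order of the genes also differed. In Col-0 it ran from DIN10 (519 ± 54.8) over SEN1 (371 ± 124), ASN1 (218 ± 22.8) and NAP (192 ± 10.9) to DIN2, DIN11 and SAG12, and SEN1 differed from DIN10 and from ASN1 by more than its SD. In ceh1 SAG13 led (1863 ± 14.1 normalized counts per kilobase), and the means of DIN2, ASN1, SEN1 and ORE1, at 111 to 130, did not differ beyond their spread. In ceh1/eds16 DIN11 (242 ± 21.7) stood beside SEN1 (256 ± 33), from which it did not differ beyond the spread, while in the other genotypes it was among the last 3.

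Among all tested genes with a symbol, those whose centred log2 profiles over the 12 libraries were nearest to DIN11 were JMJD5 (root mean squared difference 0.503) and RVE2 (0.587), beside a standard deviation of DIN11 itself of 2.02 over these libraries. SAG13 lay nearest to PTR3 (0.218) and TIN1 (0.317), SEN1 to BGAL1 (0.229) and OZS1 (0.276), and ORE1 to TRE1 (0.191) and CST (0.215). For NAP the nearest were EXPA1 (0.145) and HESO1 (0.178), for NYE1 MED19A (0.103) and RIN4 (0.105), and for DIN2 GSTU3 (0.692) and CHI (AT2G43570, 0.703). ASN1 was nearest to ACO1 (AT4G35830, 0.107) and ATG18G (0.122) and DIN10 to SD2-5 (0.0713) and CRY2 (0.124). Among the 10 genes themselves the closest pair was ASN1 and DIN10, at 0.365. A small difference is easy to reach for a gene of small range, and these distances carry no test.

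Neighbouring genes and paralogs that could share reads were read beside the members. The gene next to DIN11, AT3G49630, was at 2.85 ± 1.38 in ceh1/eds16 and at 0 in Col-0 and eds16. Of the beta-glucosidases related to DIN2, BGLU31 was at 0.595 ± 1.03 for Col-0 and 57.3 ± 7.53 for ceh1. It was at 0.789 ± 0.699 for eds16 and 37.9 ± 7.07 for ceh1/eds16. BGLU31 passed the filter on the mean of all libraries only through the ceh1 and ceh1/eds16 libraries, where it was high. Its levels with and without ceh1 are therefore given as a description with no test. BGLU28, BGLU29 and BGLU32 were too low to test. RS2, the raffinose synthase-like relative of DIN10, was at 439 ± 41.8, 619 ± 195, 499 ± 53 and 1406 ± 278 in Col-0, ceh1, eds16 and ceh1/eds16, and rose from ceh1 to ceh1/eds16 by 1.21 ± 0.18 (adjusted p = 0.000312). RS5, another relative, fell in the same comparison by 0.90 (adjusted p = 0.000438). Beside SAG13, AT2G29340 went from 228 ± 42.5 in Col-0 to 468 ± 107 in ceh1 (1.02 ± 0.20, adjusted p = 0.000451), AT2G29360 was at 671 to 813 in all genotypes and not called, and AT2G29370 was at 0.358 to 5.99. The mapping of reads shared between such copies was not tested.

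Lists of related genes, fixed with earlier results of these data known, put the 10 in context. For that reason the counts and adjusted p-values of the list genes are a description as well. All were tested in the same fit over 18289 genes. Of these genes, 25.2% were called higher and 25.0% lower in ceh1 against Col-0, and 22.1% and 20.2% in ceh1/eds16 against eds16. The shares were 5.93% and 4.24% in ceh1/eds16 against ceh1, and 1.63% and 2.96% in eds16 against Col-0. The ceh1 effect was more positive without ICS1 for 3.08% and more negative for 1.79%. Median log2 differences of all genes lay between -0.02 and 0.02 in the 5 comparisons. Of 29 tested regulators of senescence, 22 rose and 5 fell in ceh1, with a median of 1.75, and 22 rose and 2 fell in ceh1/eds16 against eds16, with a median of 1.76. NAC055 was at 4.52 ± 1.66 in Col-0, 80.4 ± 12.4 in ceh1 and 116 ± 23.8 in ceh1/eds16. NAC087 (146 ± 9.71 in ceh1 against 9.31 ± 1.5), NAC090 and NAC016 also rose in both comparisons. WRKY53, a positive regulator of senescence, and WRKY54 and WRKY70, a pair of negative regulators, rose with ceh1 in both backgrounds and were lower in ceh1/eds16 than in ceh1. From ceh1 to ceh1/eds16, WRKY54 fell by 2.03 (1071 ± 113 to 260 ± 16.8, adjusted p = 3.67e-07), WRKY70 by 1.00 (3342 ± 129 to 1675 ± 30.1, adjusted p = 1.01e-05) and WRKY53 by 0.71 (398 ± 68.5 to 241 ± 15.4, adjusted p = 0.013). The WRKY53 call was lost without ceh1 replicate 3 or ceh1/eds16 replicate 1, at an adjusted p of up to 0.0755. In all, 4 regulators fell in that comparison (2 to 5 in the fits without 1 library), with a median of -0.06 over the list. In eds16 alone 5 fell (2 to 9 in those fits), among them WRKY54 (-1.21 ± 0.16, adjusted p = 0.000336) and WRKY70 (-0.73 ± 0.11, adjusted p = 0.000789).

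Chlorophyll breakdown genes rose in part with ceh1. Of 12, 6 rose and 1 fell in ceh1 (median 0.37) and 7 rose and 3 fell in ceh1/eds16 against eds16 (median 0.76), a difference in count that was not itself tested. HCAR, which reduces hydroxymethyl chlorophyll, was at 113 ± 25.8, 223 ± 24.6, 154 ± 17.9 and 568 ± 97 in Col-0, ceh1, eds16 and ceh1/eds16. From ceh1 to ceh1/eds16 it rose by 1.34 ± 0.17 (adjusted p = 8.46e-05), beside CLH1, a chlorophyllase (1065 ± 44.4 to 2436 ± 190, 1.19 ± 0.13, adjusted p = 1.69e-05), and NYC1, the chlorophyll b reductase (1623 ± 237 to 3352 ± 183, 1.05 ± 0.12, adjusted p = 1.77e-05). In that comparison 4 rose and 1 fell. The ceh1 effect was more positive without ICS1 on NYC1 (0.88 ± 0.17, adjusted p = 0.00618), a call kept in all 12 fits without 1 library. It was more positive on CLH1 too (0.79 ± 0.19, adjusted p = 0.0247), a call lost in 5 of these fits at an adjusted p of up to 0.0754, and more negative on SGRL (-0.58 ± 0.16, adjusted p = 0.0462), a call lost in 10 at up to 0.14. SGRL, a relative of NYE1 of green leaves, fell in ceh1 by 0.81 (1162 ± 60 to 664 ± 50.6, adjusted p = 1.88e-05). MES16, a methylesterase of chlorophyll catabolites, rose in ceh1 by 0.98 ± 0.17 (adjusted p = 0.000172). ACD2, the red chlorophyll catabolite reductase, rose in eds16 against Col-0 by 0.49 ± 0.13 (adjusted p = 0.0415), a call lost without any Col-0 library, ceh1 replicate 1 or 2, or eds16 replicate 1 or 2, at an adjusted p of up to 0.21.

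Of 16 other senescence-associated genes, 12 rose in ceh1 (median 0.80) and 13 in ceh1/eds16 against eds16 (median 1.16). SAG14, a blue copper protein, went from 170 ± 20.2 to 1710 ± 200 with ICS1 and from 141 ± 13.9 to 2625 ± 301 without it. SAG21, a late embryogenesis abundant protein, went from 60.6 ± 7.15 to 872 ± 53.8 and from 35.4 ± 17.1 to 917 ± 392. SAG101, a lipase-like partner of EDS1, went from 212 ± 48.2 to 654 ± 73.9 and from 142 ± 21.5 to 660 ± 32.4. ERD1, the regulatory subunit of a plastid protease, was at 1451 ± 127, 1389 ± 282, 1156 ± 40.8 and 2212 ± 393 in Col-0, ceh1, eds16 and ceh1/eds16, and rose from ceh1 to ceh1/eds16 by 0.67 ± 0.15 (adjusted p = 0.00672). In that comparison 4 of the 16 rose (2 to 4 in the fits without 1 library), also including SAG14 (0.62 ± 0.13, adjusted p = 0.00594) and GAMMA-VPE, a vacuolar processing protease (0.47 ± 0.12, adjusted p = 0.0143). The GAMMA-VPE call was lost without ceh1 replicate 1 or ceh1/eds16 replicate 2, at an adjusted p of up to 0.0827.

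Of 12 nitrogen remobilization genes, 8 rose and 2 fell in ceh1 (median 0.52) and 7 rose in ceh1/eds16 against eds16 (median 0.59). NRT1.7, which loads nitrate from old leaves into the phloem, was at 297 ± 38.3, 734 ± 120, 202 ± 19.3 and 1297 ± 164 in Col-0, ceh1, eds16 and ceh1/eds16. LHT1, an amino acid transporter, was at 244 ± 63.7, 918 ± 117, 142 ± 15.6 and 1025 ± 130. The ceh1 effect was more positive without ICS1 for 4 genes of the list, among them NRT1.7, LHT1 and GDH1. In the fits without 1 library this held for 1 to 4 genes, with 1 gene without ceh1 replicate 1, eds16 replicate 1 or eds16 replicate 2 and 2 without replicate 2 of Col-0, ceh1 or ceh1/eds16. GLN1;1, the cytosolic glutamine synthetase, went from 970 ± 184 to 3879 ± 547 with ceh1 and fell from ceh1 to ceh1/eds16 by 0.82 ± 0.13, to 2188 ± 35.6 (adjusted p = 0.000684). PPDK was lower there too (-0.46 ± 0.14, adjusted p = 0.0399), a call lost without Col-0 replicate 2, any ceh1 library, eds16 replicate 1 or 3, or replicate 1 or 3 of ceh1/eds16, at an adjusted p of up to 0.122. In eds16 alone 4 genes fell against Col-0 (1 to 5 in those fits), among them GLN1;1, LHT1 and NRT1.7, by 0.72, 0.75 and 0.55 on the log2 scale (adjusted p = 0.00604, 0.0161 and 0.0395). Of these, LHT1 was lost without Col-0 replicate 2 or eds16 replicate 1 or 2, at an adjusted p of up to 0.0915. NRT1.7 was lost without Col-0 replicate 1 or 2, ceh1 replicate 1, any eds16 library or ceh1/eds16 replicate 1, at an adjusted p of up to 0.181.

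About as many autophagy genes were called with ceh1 in either background. Of 19, 10 rose and 1 fell in ceh1 (median 0.43) and 10 rose in ceh1/eds16 against eds16 (median 0.54), and 8 to 10 and 7 to 11 rose in the fits without 1 library. ATG8D, a ubiquitin-like protein of the autophagosome membrane, went from 62.2 ± 12.5 to 177 ± 21.4 with ICS1 and from 73.6 ± 4.27 to 173 ± 53.3 without it. ATG8H and ATG12A rose in ceh1 by 1.32 ± 0.26 and 1.36 ± 0.25 (adjusted p = 0.000497 and 0.000293). NBR1, a cargo receptor, was at 1884 ± 218, 2989 ± 212, 1399 ± 28.2 and 3725 ± 363 in the 4 genotypes. Its fall in eds16 against Col-0 (-0.42 ± 0.12, adjusted p = 0.0479) was lost without Col-0 replicate 1 or 2 or any ceh1 or eds16 library, at an adjusted p of up to 0.209.

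The remaining DIN genes and the enzymes of branched-chain amino acid breakdown, which feed respiration in starved leaves, formed another list. Of its 13, 3 rose and 1 fell in ceh1 (median 0.03) and 5 rose in ceh1/eds16 against eds16 (median 0.23). BCAT2, a branched-chain aminotransferase, was at 32.9 ± 5.94, 164 ± 26.6, 29.6 ± 2.11 and 304 ± 49.1 in Col-0, ceh1, eds16 and ceh1/eds16, and rose from ceh1 to ceh1/eds16 by 0.88 ± 0.19 (adjusted p = 0.00518). MCCA, a subunit of methylcrotonyl-CoA carboxylase, fell in ceh1 from 386 ± 19.7 to 224 ± 30.5 (-0.79 ± 0.14, adjusted p = 0.00015) and was at 363 ± 56.5 in ceh1/eds16, higher than in ceh1 by 0.70 ± 0.14 (adjusted p = 0.0029). BCKDHA1 rose with ceh1 in both backgrounds, by 0.89 ± 0.14 and 0.81 ± 0.14. DIN4, a subunit of the branched-chain ketoacid dehydrogenase, was at 232 ± 16.6 in ceh1 and 335 ± 9.32 in ceh1/eds16 (0.53 ± 0.16, adjusted p = 0.0404), a call lost without Col-0 replicate 2 or 3, any ceh1 library, eds16 replicate 1, or ceh1/eds16 replicate 1 or 2, at an adjusted p of up to 0.177.

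Energy starvation and dark response genes included 3 that, as DIN11, were higher in ceh1/eds16 than in ceh1. Of 14 tested, 2 rose and 6 fell in ceh1 (median -0.23) and 5 rose and 2 fell in ceh1/eds16 against eds16 (median 0.02). DRM1, a dormancy-associated protein used as a marker of sugar starvation, was at 579, 785 and 631 for Col-0, 988, 1020 and 1297 for ceh1, 594, 589 and 571 for eds16 and 2798, 3003 and 4946 for ceh1/eds16. DRM2, its relative, was at 757 ± 178 for Col-0, 3418 ± 90.1 for ceh1, 664 ± 55.9 for eds16 and 10094 ± 4238 for ceh1/eds16. SEN5, an aluminium-induced-type protein of unclear function, was at 1603 ± 143, 1506 ± 348, 1556 ± 313 and 3178 ± 680. All 3 were higher in ceh1/eds16 than in ceh1 without overlap, by 1.66 ± 0.18, 1.48 ± 0.21 and 1.08 ± 0.18 (adjusted p = 1.24e-05, 0.000192 and 0.000642). In ceh1/eds16 replicate 3 was the highest for each of them, whereas for DIN11 it was between the others. The ceh1 effect was more positive without ICS1 for 4 genes of the list, these 3 among them, and for 3 to 8 in the fits without 1 library, with 8 without ceh1/eds16 replicate 3. TPS5, a class II trehalose phosphate synthase, fell in ceh1 by 0.90 (275 ± 57.7 to 145 ± 5.75, adjusted p = 0.000108). STP1, a sugar transporter, fell in eds16 against Col-0 by 0.65 ± 0.16 (adjusted p = 0.0255), a call lost without Col-0 replicate 1 or 2 or any eds16 library, at an adjusted p of up to 0.143.

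**Figure D4:**
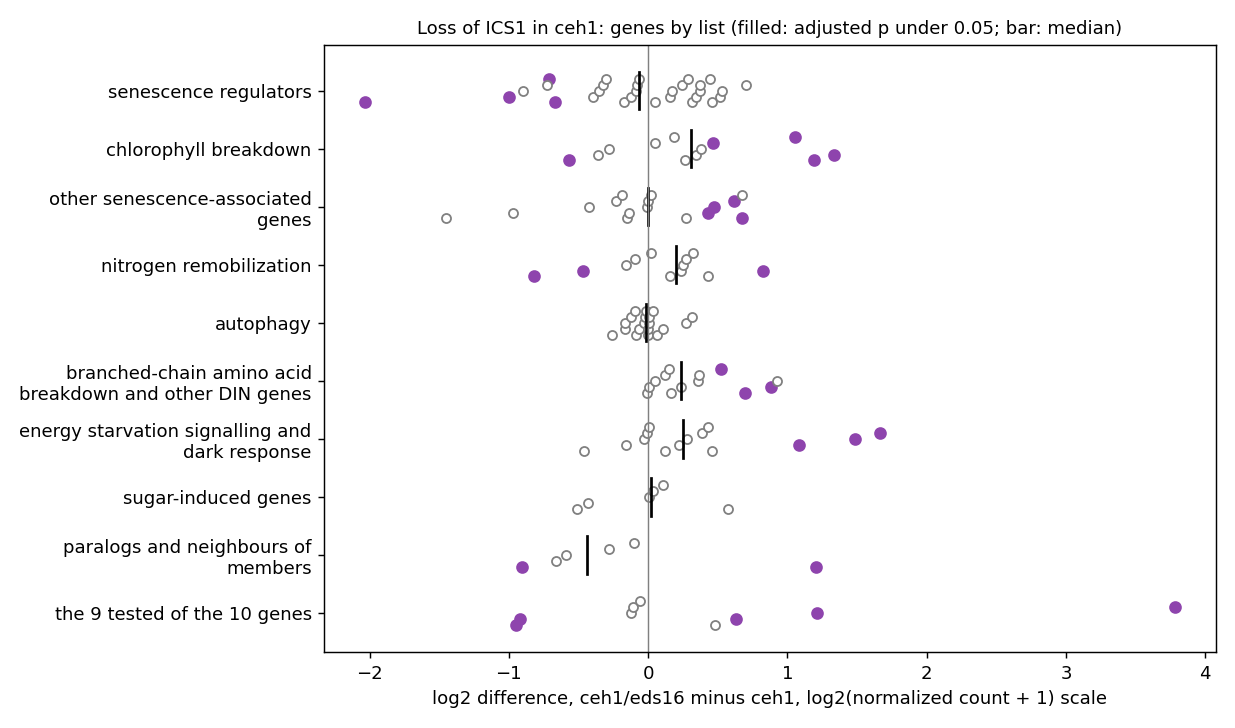
Log2 difference between ceh1/eds16 and ceh1 (horizontal axis) for each tested gene of the 9 related lists and for the 9 tested of the 10 genes. Filled points passed an adjusted p of 0.05 and black bars are list medians. Autophagy genes lie close to 0, while DIN11 lies farthest to the right at 3.78.

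Most sugar-induced genes were lower in ceh1/eds16 than in eds16. Of 6, 2 rose and 3 fell in ceh1 (median -0.04), and 1 rose and 5 fell in ceh1/eds16 against eds16 (median -1.07). Between ceh1/eds16 and ceh1, 0 of the 6 were called (median 0.02), and the median in eds16 against Col-0 was 0.99. In the interaction, 2 of the 6 had a more negative ceh1 effect without ICS1 and 0 a more positive one (median -0.95). The more negative ones were 0 to 2 in the fits without 1 library. BAM5, a beta-amylase, was at 72.9 ± 50.8, 15.1 ± 6.46, 280 ± 148 and 21.8 ± 5.45 in Col-0, ceh1, eds16 and ceh1/eds16, and CHS, chalcone synthase, at 416 ± 70.5, 140 ± 12.7, 401 ± 68.2 and 98.5 ± 13.3. GPT2, the sugar-induced glucose 6-phosphate translocator, went the other way, from 4.16 ± 3.31 to 105 ± 22.2 with ICS1 and from 5.44 ± 0.717 to 106 ± 16.1 without it. In eds16 against Col-0, 3 of the 6 rose, BAM5 among them (1.98 ± 0.45, adjusted p = 0.0209), a call lost without Col-0 replicate 2, Col-0 replicate 3, eds16 replicate 1 or eds16 replicate 2, at an adjusted p of up to 0.133.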

How the data were processed

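What the authors deposited is 1 signal value for each gene in each library: a read count divided by that library's size factor. TopHat2, DESeq2 and the build TAIR10 appear, without versions, in the submitters' processing notes. In every library all values were whole multiples of the step worth 1 read, within 0.01 reads, so whole reads could be recovered (4.99 M to 18.08 M per library).

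Genes with a mean of at least 10 were kept (18289, with 15313 removed) and log2(normalized count + 1) was fitted in R 4.3.3 by limma 3.58.1 with a variance trend and 4 group means over all 12 libraries (8 residual and 8.69 prior degrees of freedom). Tests were two-sided, with Benjamini-Hochberg adjustment over all genes and a threshold of 0.05. The fit was also run on simulated counts with a set spread, with changes placed only in genes with many reads. Those counts held no library that stood apart, so the run cannot speak for genes with few reads or for such libraries. A gap between ceh1 effects, or interaction, is ceh1/eds16 minus eds16, less ceh1 minus Col-0. Recovered counts went to edgeR 4.0.16 and DESeq2 1.42.0 as alternatives to the deposited values. The replicates are biological per the labels' design text, and p-values measure the spread between them.

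The members and lists were chosen with earlier results of these data known. From each list and comparison, up to 3 called genes with the largest change and a group mean of at least 100 were named, and for each member the 2 genes of most similar profile. Table loci matched RefSeq TAIR10.1 in 32835 of 33602 cases, and the files hold no coordinates, so positions and promoters are from TAIR10.1.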

Additional observations from a re-analysis of the deposited data

Results flagged for a closer look

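For 2 of the 10 genes the ceh1 effect differed between backgrounds by a test of the difference itself (limma, adjusted over 18289 genes). The difference was 3.31 for DIN11, which was at 344 to 409 in the ceh1/eds16 libraries and at 5.35 to 33.9 in the 9 others, and 1.46 for SEN1, which was at 98.6 to 188 in the ceh1 libraries and at 258 to 596 in the others. The DIN11 call held in all 12 fits without 1 library, and the SEN1 call was lost in 4 of them. Both genes were chosen with values of these libraries known, so these calls are a description.

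Over all genes, the same test called 3.08% with a more positive ceh1 effect without ICS1 and 1.79% with a more negative one. The 17 related genes that follow were named from the lists because they were called, up to 3 from each, so their number reflects that choice. Naming also took a group mean of at least 100. The sugar-induced genes called here, with a more negative ceh1 effect without ICS1, were below that mean and are not among the 17. Those that held in all 12 fits without 1 library were DRM1 (1.84), DRM2 (1.65), NRT1.7 (1.37), ERD1 (1.00) and NYC1 (0.88), with a largest adjusted p in such fits of 0.00395, 0.0194, 0.00643, 0.047 and 0.0304.

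SAG14 (0.89) was lost without ceh1 replicate 2 (adjusted p = 0.0504). GAMMA-VPE (0.70) was lost without Col-0 replicate 2, ceh1 replicate 1, eds16 replicate 1 or ceh1/eds16 replicate 2, and NBR1 (0.74) without Col-0 replicate 2, ceh1 replicate 1 or 2, or eds16 replicate 1. CLH1 (0.79) was lost without Col-0 replicate 2 or 3, ceh1 replicate 1 or 2, or eds16 replicate 1, and SEN5 (1.14) without Col-0 replicate 2, ceh1 replicate 1 or 2, or eds16 replicate 1 or 2. For these 4 genes the adjusted p rose to at most 0.0801, 0.0617, 0.0754 and 0.0584.

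The remaining 7 were called in at most 6 of the 12 fits. GDH1 (0.73) was lost in 6 and LHT1 (0.91) and RS2 (1.02) in 7, while WRKY54 (-0.82) and BCAT2 (1.02) were lost in 9 and SGRL (-0.58) and MCCA (0.73) in 10. Each of these 7 was lost without ceh1 replicate 1, ceh1 replicate 2, eds16 replicate 1, eds16 replicate 2 or ceh1/eds16 replicate 2, at adjusted p of up to 0.141.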

How the results depend on the processing

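The interaction called 891 genes and 2 of the 10 members, and 593 genes without the filter, 554 genes and 1 member without the variance trend, and 566 genes with the replicate number as a block. Without 1 library it called 348 to 3013 genes and 1 to 5 members, with 5 without ceh1 replicate 3 or ceh1/eds16 replicate 3. Between eds16 and Col-0, 841 genes and 1 member were called, against 512 and 0 without the trend, 538 genes with the block, 1513 genes with these 2 groups alone and 0 members with edgeR, and 237 to 1781 genes and 0 to 1 members without 1 library. Between ceh1/eds16 and ceh1, 1860 genes and 5 members were called, and 1024 to 3247 genes and 4 to 6 members without 1 library. In these 3 comparisons the highest count of genes came without ceh1/eds16 replicate 3. At an unadjusted p under 0.05, 3985 genes passed in the interaction and 3695 in eds16 against Col-0. The cause of these changes was not tested.

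Of the member calls, SEN1 in the interaction had an adjusted p of 0.0556 without the trend. ASN1 between ceh1/eds16 and ceh1 was lost without the filter (0.0514), at equal totals (0.0939), without the trend (0.0827), with the block (0.063) and with the 2 groups alone (0.14). DIN2 in eds16 against Col-0 was lost without the trend (0.0724) and with edgeR (0.0834), and DIN10 between ceh1/eds16 and ceh1 passed with DESeq2 (0.0481).

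Replicate numbers did not pair the libraries: over 18 same-numbered pairs the correlation of deviations ran from -0.448 to 0.118, above 0.1 in 1, and 4 of 12 libraries correlated best with their own number. Some libraries of different number were more alike. The correlation was 0.421 for ceh1 replicate 2 with ceh1/eds16 replicate 3, and 0.438 for ceh1 replicate 3 with ceh1/eds16 replicate 2. The source of these correlations was not tested, and the main fit treated all libraries as independent. Genes with few reads, such as SAG12, DIN2 in eds16 and DIN11 outside ceh1/eds16, have wide errors at this depth.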
